A study of Bos taurus with 24 samples.

Results

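Kinesins are motor proteins that hydrolyse ATP to walk along microtubules or to take microtubules apart. Spindle kinesins build, focus and shorten the spindle, move chromosomes and act at the midzone during cytokinesis, whereas cargo kinesins carry vesicles, mitochondria, endosomes and other loads. A metaphase II oocyte holds a meiotic spindle that was assembled without centrioles and has just extruded its first polar body, and it depends on mRNA stored during growth, since transcription is largely silent by then. Kinesin genes were taken as the rows of the expression table whose symbol is KIF or KIFC followed by a digit, which matched 37 of 17071 rows. One of them, KIF1BP, encodes a protein that binds kinesins and is no motor, so 36 kinesins were described and KIF1BP was placed with the partners. By the known roles of their families, 13 were grouped as spindle kinesins, 16 as cargo kinesins and 7 as other kinesins, mostly of cilia and centrioles. Of 42 kinesins looked for, KIF4B, KIF6, KIF20B, KIF21B, KIF25 and KIF26A matched no symbol, and 3276 rows that carry an ID alone were not searched for them.

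Single bovine oocytes from slaughterhouse ovaries were compared. Non-specific siRNA mixed with Dextran-TRITC had been injected into 12 of them as germinal vesicle oocytes, and 12 were non-injected. Of the injected oocytes, only those with red fluorescence were kept for culture. All were stripped of cumulus cells, kept for 16 h in roscovitine, which delays germinal vesicle breakdown, matured in vitro for 22 h and selected for a first polar body. The groups therefore differ in the injection, in what it carried, and in the handling and fluorescence selection that came with it. No group analysed here had the needle or the dextran without siRNA, and these cannot be told apart. CEL-seq2 primes cDNA at the poly(A) tail and counts each tagged molecule once by a unique molecular identifier (UMI), whatever the length of its transcript. The authors' values are RPM, UMI counts scaled to a fixed library total, a share of the tagged RNA. Fewer molecules and a shorter poly(A) tail therefore cannot be told apart, also where genes are compared with each other. Genes were set side by side without dividing by length. The siRNA injected oocytes held 204285 to 382077 UMIs and the non-injected oocytes 134080 to 415554, so that 1 UMI was worth 2.47 to 4.77 RPM (injected) and 2.27 to 7.35 RPM (non-injected). Oocyte markers had a median of 463 RPM in injected oocytes and 448 RPM in non-injected ones over 9 measured genes, while 9 cumulus and granulosa markers had a median of 17.2 RPM (injected) and 14.5 RPM (non-injected), and their sum ranged from 320.2 to 585 RPM in injected oocytes and from 353 to 513 RPM in non-injected ones. STAR, a gene of steroid-producing cells, led the second list at 261 RPM (injected) and 263 RPM (non-injected), and 4 of its 9 genes lay under 10 RPM. The sources used here do not say which oocytes shared an animal, and p-values therefore measure the spread among oocytes. All values after ± are SDs over 12 oocytes of a group unless stated.

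Most kinesin RNA of these oocytes came from spindle kinesins, which made up 62.1% ± 2.83 of the summed kinesin RPM (SD over 24 oocytes). Over all 24 oocytes, 19 of the 36 kinesins averaged 10 RPM or more, and 11 reached 100 RPM. These 19 were 11 of 13 spindle, 7 of 16 cargo and 1 of 7 other kinesins. The median of the gene means was 94.2 RPM for spindle, 7.48 RPM for cargo and 3.63 RPM for other kinesins. KIF23 led the family at 627 RPM, above 98.4% of the rows with any RNA, followed by KIF3A at 320.0 RPM, KIF18A at 265 RPM, KIF2C at 262 RPM, KIF3C at 259 RPM, KIF15 at 206 RPM and KIF24 at 171 RPM. In the middle stood KIF5B at 156 RPM, KIF20A at 146 RPM, KIFC1 at 103 RPM and KIF3B at 100.4 RPM. KIF2A, KIF5C, KIF22, KIF4A, KIF14, KIF11, KIF16B and KIF1B followed, at 94.2 to 10.2 RPM. Set against each other within the same oocytes, most neighbours in this order had a mean difference smaller than its SD over 24 oocytes. This compares spread among oocytes and does not test the mean difference. KIF18A and KIF2C, for example, differed by 2.70 ± 81.3 RPM (SD over 24 oocytes). KIF3C and KIF15 differed by 52.8 ± 88.0 RPM, with KIF3C higher in 17 oocytes and lower in 6. The exceptions were KIF23 over KIF3A, higher in 24 of 24 oocytes, KIF20A over KIFC1, higher in 20 and lower in 2, and KIF16B over KIF1B, higher in 23 and lower in 1.

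**Figure D1:**
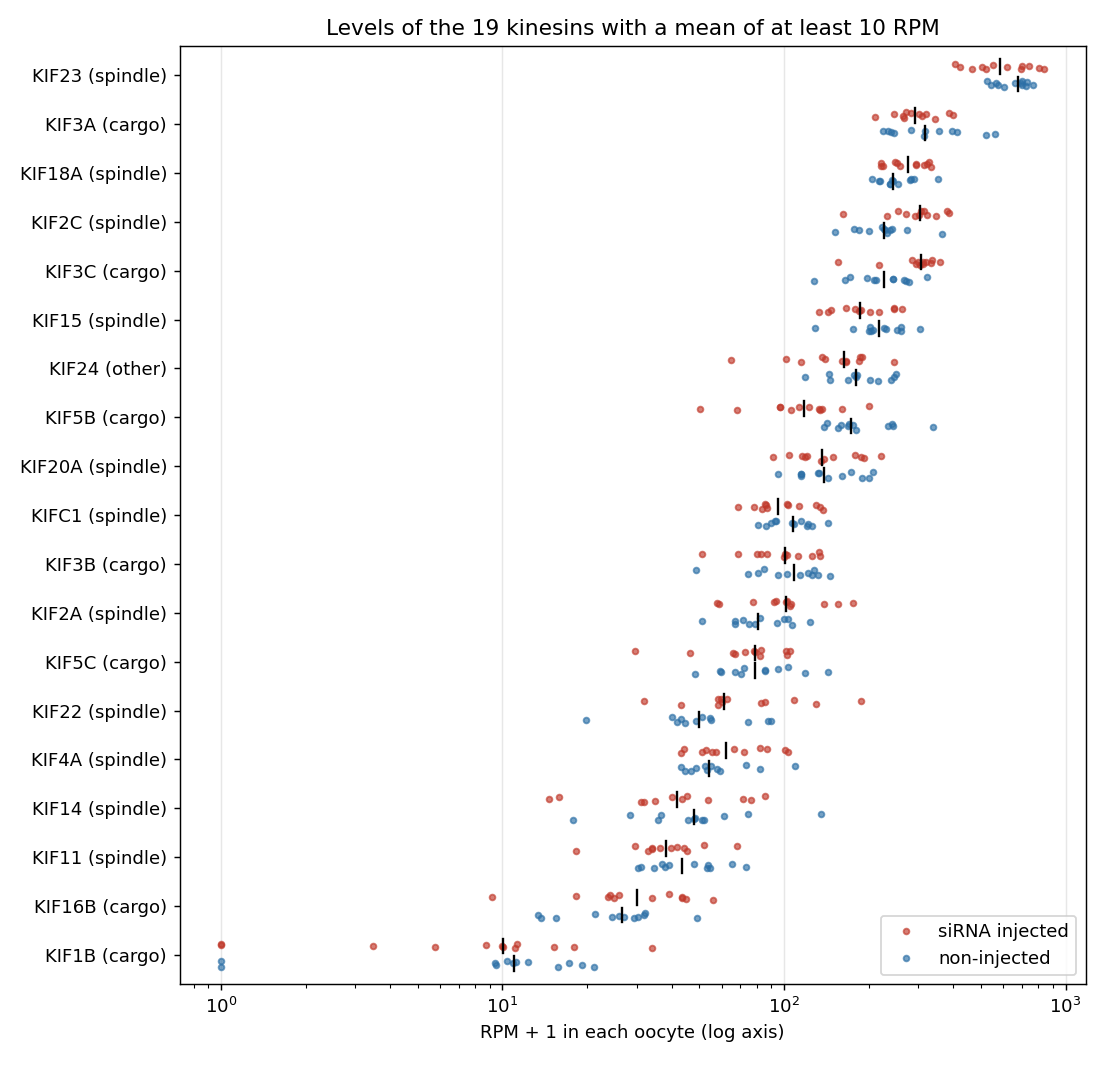
RPM plus 1 on a log axis for the 19 kinesins averaging 10 RPM or more, with the class of each in brackets; each point is 1 oocyte, siRNA injected above non-injected, and the black bar is the group's median. KIF23 stands apart at the top, and the points of the groups overlap for every kinesin.

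Of the kinesins tested, 1 passed the threshold between injected and non-injected oocytes. With limma on log2(RPM + 5), taking an adjusted p below 0.05 together with a change of more than 1.2 times, 1 of 19 tested kinesins was lower in siRNA injected oocytes, KIF5B, and 0 were higher. Among all 7256 genes tested, 0.138% were called lower and 0.0827% higher. At an unadjusted p under 0.05, 4 kinesins differed, KIF2C, KIF3C and KIF22 higher and KIF5B lower, which is 21.1% of the 19, and 12.4% of all genes did so. Of the 19, 7 had a higher and 12 a lower mean log2 value in injected oocytes, with a median log2 fold change (log2FC) of -0.10, beside 0.02 over all genes tested. Among the 11 spindle kinesins 5 were positive and 6 negative, with a median of -0.03, and among the 7 cargo kinesins 2 were positive and 5 negative, with a median of -0.14. On UMI counts recovered from the RPM values, edgeR called 1.17% and DESeq2 2.86% of the genes they tested, and KIF5B was the 1 kinesin called by each, at an adjusted p of 0.0424 from edgeR and 0.0137 from DESeq2. For all 36 kinesins the values of injected and non-injected oocytes overlapped. How many of all genes overlap was not counted, so this says nothing particular of kinesins. Every untested kinesin but KIF13B also reached 0 RPM in both groups, which makes overlap certain for them.

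**Figure D2:**
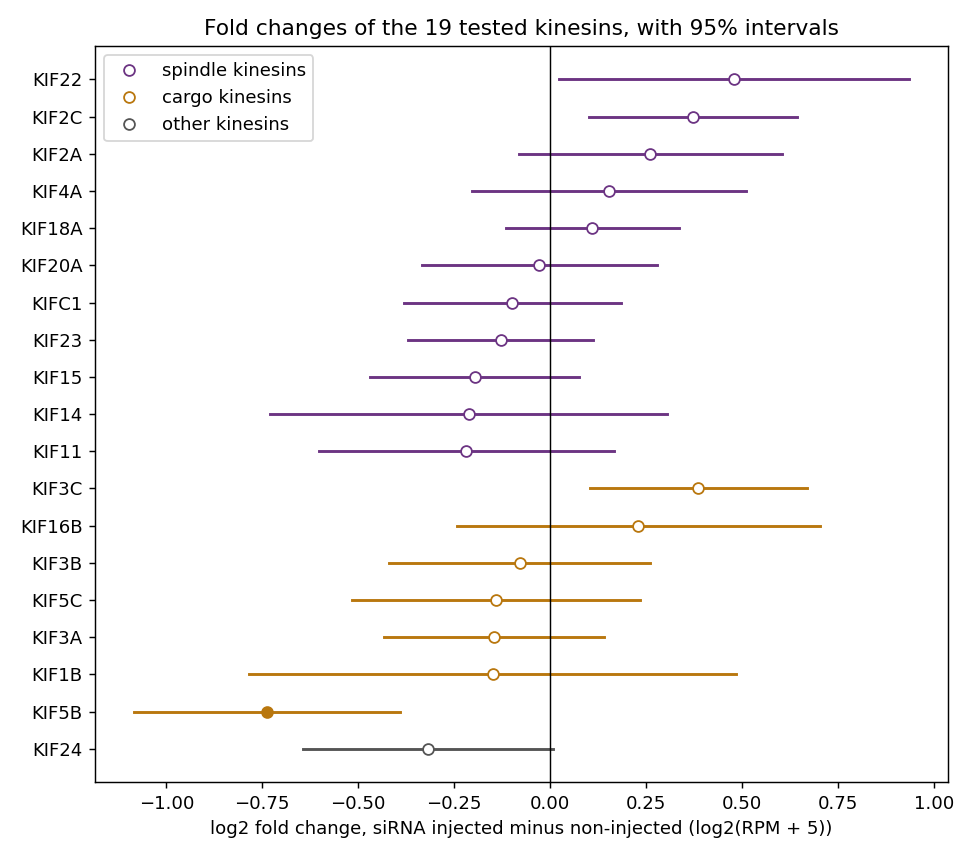
Log2 fold change of siRNA injected over non-injected oocytes on log2(RPM + 5) for the 19 tested kinesins, with its 95% interval from limma, coloured by class; the filled point is called at an adjusted p under 0.05 and open points are not. KIF5B lies at -0.74, and the intervals of KIF22, KIF2C and KIF3C lie above 0 before adjustment.

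The spindle kinesin of highest level, KIF23, is a midzone motor, while the other motors of the midzone and of cytokinesis stood lower. KIF23 (ENSBTAG00000009983) is the motor of centralspindlin, which bundles antiparallel microtubules between separating chromosomes and positions the contractile ring. It ranged from 405 to 839.7 RPM (median 584) in injected oocytes and from 526 to 762 RPM (median 678) in non-injected ones, with means of 605 ± 149 RPM (injected) and 649 ± 81.3 RPM (non-injected). Injected oocytes lay on both sides of the other group, 5 below its lowest and 2 above its highest value. The log2FC was -0.13 (standard error, SE, 0.12, adjusted p = 0.711 from limma). The coefficient of variation of KIF23 was 24.7% in injected and 12.5% in non-injected oocytes, beside 7.70% (injected) and 7.62% (non-injected) that counting alone would give at these UMI numbers. RACGAP1, the partner of KIF23 in centralspindlin, was at 52.3 ± 29.3 RPM (injected) and 43.0 ± 12.1 RPM (non-injected), so that KIF23 mRNA stood above it in 24 of 24 oocytes, by a mean ratio of 15.04 ± 7.49 in injected and 16.2 ± 4.85 in non-injected oocytes. KIF20A, which takes the chromosomal passenger complex to the midzone, was at 145 ± 39.99 RPM (injected) and 147 ± 37.2 RPM (non-injected), a log2FC of -0.03 with an interval from -0.33 to 0.28. KIF4A, which works with PRC1 in the midzone, was at 67.0 ± 21.2 RPM (injected) and 59.5 ± 19.2 RPM (non-injected), and KIF14, which acts with citron kinase in cytokinesis of human cells, at 44.3 ± 22.7 RPM (injected) and 51.8 ± 29.8 RPM (non-injected). KIF14 spread widely, with a coefficient of variation of 51.2% in injected and 57.5% in non-injected oocytes against 28.5% (injected) and 27.0% (non-injected) from counting.

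Motors that push spindle poles apart were represented unequally. KIF11, the kinesin-5 that slides antiparallel microtubules and is needed for a bipolar spindle in most animal cells, ranged from 17.3 to 66.8 RPM (median 37.0) in injected oocytes and from 29.4 to 72.6 RPM (median 42.6) in non-injected ones. Its coefficient of variation, 32.1% in injected and 30.5% in non-injected oocytes, was about that of counting alone, 30.5% (injected) and 28.8% (non-injected). KIF11 had a log2FC of -0.22 (SE 0.19, adjusted p = 0.684 from limma). KIF15, the kinesin-12 that can take over from KIF11 in human cells, ranged from 132 to 263 RPM (median 185) in injected oocytes and from 128 to 302 RPM (median 216) in non-injected ones. KIF15 had a log2FC of -0.20 (SE 0.13, adjusted p = 0.587 from limma), with 1 non-injected oocyte above and 1 below the range of the injected ones. KIF15 RNA was above KIF11 RNA in 24 of 24 oocytes, with a mean ratio of 5.39 ± 1.84 in injected and 5.33 ± 2.20 in non-injected oocytes. KIFC1, the minus-end-directed kinesin-14 that bundles microtubules and focuses spindle poles, was at 99.8 ± 23.3 RPM in injected oocytes and 106 ± 19.02 RPM in non-injected ones, with a coefficient of variation of 23.3% (injected) and 17.9% (non-injected) beside 18.97% and 18.8% from counting in the same order.

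KIF2C and KIF22 were the spindle kinesins with the smallest p. KIF2C (ENSBTAG00000015280), the kinesin-13 that depolymerises microtubules at centromeres and so helps to release wrong attachments, ranged from 161 to 385 RPM (median 303) in injected oocytes and from 151 to 363 RPM (median 226) in non-injected ones. In 11 of 12 injected oocytes KIF2C lay above the non-injected median, though the groups overlapped over most of their range. Means were 296 ± 62.8 RPM (injected) and 227 ± 53.8 RPM (non-injected), a log2FC of 0.37 (SE 0.13), which did not pass the threshold (adjusted p = 0.218 from limma). KIF2A, the kinesin-13 of spindle poles, ranged from 56.9 to 174 RPM (median 101) in injected oocytes and from 50.3 to 122 RPM (median 79.6) in non-injected ones. KIF2A had a log2FC of 0.26 (SE 0.17, adjusted p = 0.554 from limma), and 3 injected oocytes exceeded the highest non-injected one. KIF2C made up 73.6% ± 7.96 of the KIF2 RNA in injected and 72.5% ± 6.54 in non-injected oocytes, and stood above KIF2A in 24 of 24, while KIF2B, the remaining kinesin-13 of that name, gave 3 UMIs in all injected and 1 in all non-injected oocytes.

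KIF22, a chromokinesin that binds chromosome arms and moves them towards the spindle equator, ranged from 30.9 to 187 RPM (median 60.3) in injected oocytes and from 18.8 to 89.1 RPM (median 49.1) in non-injected ones. Its 3 highest injected oocytes lay above every non-injected one, and the remaining 9 fell within the other group's range. KIF22 had a log2FC of 0.48 (SE 0.23, adjusted p = 0.371 from limma), and its coefficient of variation was 54.5% in injected and 38.5% in non-injected oocytes. KIF18A, a kinesin-8 that dampens microtubule growth at kinetochores and aligns chromosomes in human cells, was among the steadiest members. It ranged from 219.6 to 332 RPM (median 275) in injected oocytes and from 205 to 352 RPM (median 242) in non-injected ones, with means of 275 ± 43.2 RPM (injected) and 254 ± 40.5 RPM (non-injected). KIF18A had a coefficient of variation of 15.7% (injected) and 15.9% (non-injected), and a log2FC of 0.11 (SE 0.11, adjusted p = 0.733 from limma). Its relative KIF18B was nearly undetected, at 5 UMIs in 2 of 12 injected and 12 UMIs in 8 of 12 non-injected oocytes.

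The 10 partners of spindle kinesins had a median level of 92.4 RPM, and 0 of them were called. Among all 7256 genes tested, 0.138% were called lower and 0.0827% higher, so 0 of 10 says nothing particular of these partners. They spread from PSRC1 at 23.6 RPM, ARF6 at 23.7 RPM and CIT at 24.4 RPM over all oocytes up to NUSAP1. NUSAP1, a microtubule-bundling protein of the spindle, was at 1459 ± 349 RPM in injected oocytes and 1316 ± 195 RPM in non-injected ones (log2FC 0.13, SE 0.11, adjusted p = 0.672 from limma). TPX2, which nucleates spindle microtubules and recruits KIF15, was at 865 ± 126 RPM (injected) and 907 ± 134 RPM (non-injected), with a log2FC of -0.07 (SE 0.10, adjusted p = 0.836 from limma). CENPE, a kinesin-7 of kinetochores whose symbol lies outside the rule, ranged from 117 to 456 RPM (median 224) in injected oocytes and from 225 to 595 RPM (median 337) in non-injected ones. In 7 of 12 injected oocytes CENPE lay below the lowest non-injected value. Its log2FC of -0.61 (SE 0.19) was the nearest to that of KIF5B among the genes looked at, but did not pass the threshold (adjusted p = 0.150 from limma). ECT2, the RhoA activator that centralspindlin recruits, was at 140.5 ± 32.9 RPM (injected) and 181 ± 34.7 RPM (non-injected), and 11 of 12 injected oocytes lay below the non-injected median (log2FC -0.36, adjusted p = 0.244 from limma). HMMR, a microtubule-binding protein of spindle poles, was at 77.4 ± 22.2 RPM (injected) and 57.1 ± 25.1 RPM (non-injected), and 12 of 12 injected oocytes lay above the non-injected median (log2FC 0.47, adjusted p = 0.307 from limma).

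KIF5B (ENSBTAG00000002280), the heavy chain of kinesin-1 made in nearly all cell types, was the kinesin that fell. Kinesin-1 carries mitochondria, vesicles and RNA granules towards microtubule plus ends. KIF5B ranged from 49.5 to 199 RPM (median 117) in injected oocytes and from 137 to 337 RPM (median 172) in non-injected ones, which rest on 400 UMIs (injected) and 656 UMIs (non-injected). Of the injected oocytes, 10 of 12 lay below the lowest non-injected value and 2 within the other group's range, and 4 non-injected oocytes lay above the highest injected one. The log2FC was -0.74 (SE 0.17, interval -1.08 to -0.39, adjusted p = 0.0495 from limma), or 0.5996 times on the scale of RPM + 5. This adjusted p is close to the threshold, and KIF5B was not called with a pseudocount of 1 RPM (adjusted p = 0.0536 from limma) or without the filter on low values (adjusted p = 0.0969 from limma). Leaving out 1 oocyte at a time, the call held without injected oocyte 2, 4 or 5 or non-injected oocyte 2 or 9 and was lost without any of the other 19, at adjusted p from 0.0510 to 0.0854 from limma, while the log2FC stayed between -0.81 and -0.64.

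Of the other chains of kinesin-1, only KIF5C and KLC2 were tested, and neither was called. KIF5C, a heavy chain best known from neurons, was at 75.1 ± 22.4 RPM in injected oocytes and 83.1 ± 27.6 RPM in non-injected ones (log2FC -0.14, interval -0.52 to 0.23, adjusted p = 0.805 from limma). KIF5B made up 59.8% ± 9.79 of the kinesin-1 heavy chain RNA in injected and 68.9% ± 7.30 in non-injected oocytes, and stood above KIF5C in 23 of 24. The difference between the fold changes of KIF5B and KIF5C was not tested. KIF5A, the neuronal heavy chain, lay under the minimum for testing, at 7 UMIs in injected and 12 UMIs in non-injected oocytes. Of the light chains, KLC1 was not analysed here, and KLC2 was the highest of the 3 measured, at 17.8 ± 7.12 RPM (injected) and 19.1 ± 5.94 RPM (non-injected). KLC3 and KLC4 lay under the minimum for testing. KTN1, an endoplasmic reticulum membrane protein that binds kinesin-1, was at 741 ± 209.8 RPM (injected) and 854 ± 231 RPM (non-injected) (log2FC -0.21, adjusted p = 0.573 from limma), and FEZ1, an adaptor that links cargo to kinesin-1, at 69.3 ± 14.5 RPM (injected) and 88.3 ± 16.5 RPM (non-injected), where 11 of 12 injected oocytes lay below the non-injected median (log2FC -0.33, adjusted p = 0.341 from limma). Of the 15 cargo partners tested, 0 were called, 6 lay above and 9 below 0 in log2FC. Among all 7256 genes tested, 46.9% lay below 0, 0.138% were called lower and 0.0827% higher. With so few genes called, 0 of 15 says nothing particular of these partners.

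**Figure D3:**
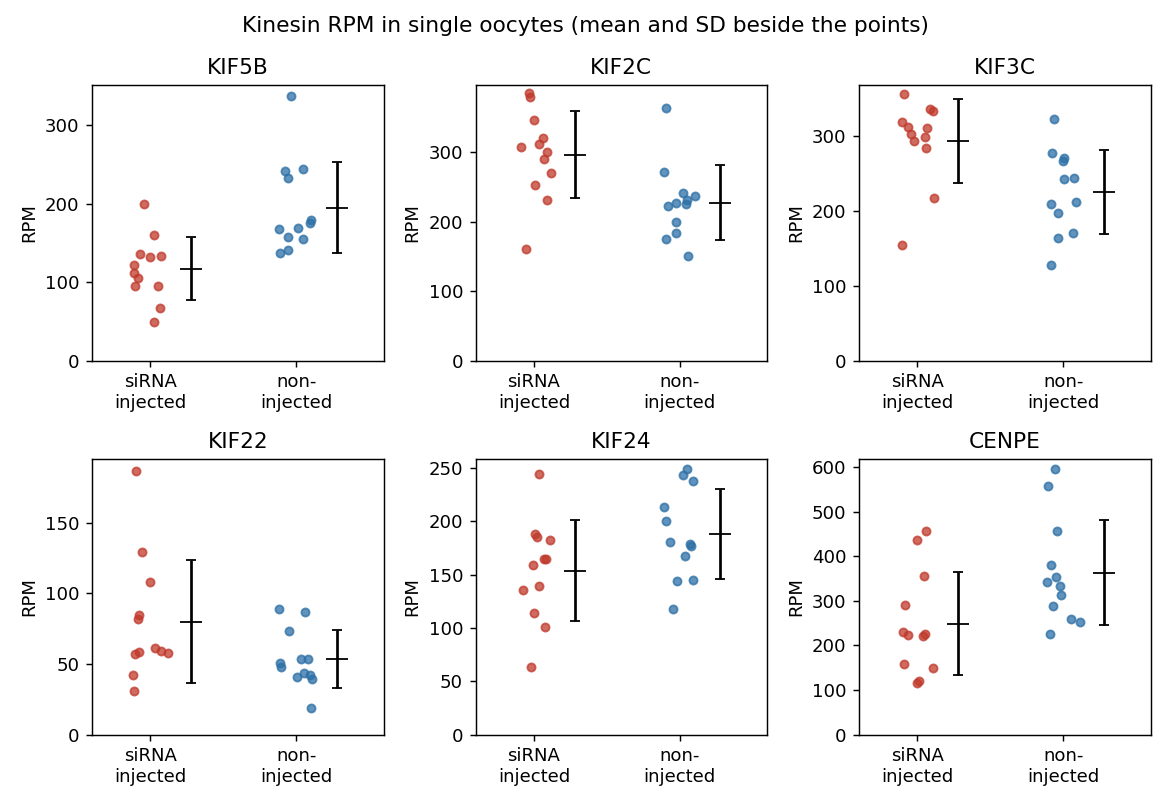
RPM in single oocytes for KIF5B, KIF2C, KIF3C, KIF22, KIF24 and CENPE, siRNA injected on the left and non-injected on the right of each panel; each point is 1 oocyte and the bar beside it gives the mean and SD (n = 12). Most injected oocytes lie below the non-injected ones for KIF5B, and the groups overlap in every panel.

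Of the kinesin-2 subunits, KIF3A and KIF3C stood above KIF3B. KIF3A forms a motor with KIF3B or KIF3C, and with KIF3B and the adaptor KIFAP3 it drives transport inside cilia as well as of membrane cargo. KIF3A ranged from 209.5 to 398 RPM (median 290.2) in injected oocytes and from 224 to 561 RPM (median 315) in non-injected ones, and 3 non-injected oocytes exceeded every injected one. KIF3A had means of 299 ± 55.4 RPM (injected) and 341 ± 112 RPM (non-injected) and a log2FC of -0.15 (SE 0.14, adjusted p = 0.724 from limma). KIF3C (ENSBTAG00000019138) ranged from 155 to 356 RPM (median 306) in injected oocytes and from 127 to 322 RPM (median 227) in non-injected ones, and 10 of 12 injected oocytes lay above the non-injected median. It had means of 293 ± 55.3 RPM (injected) and 225 ± 55.6 RPM (non-injected) and a log2FC of 0.39 (SE 0.14), which did not pass the threshold (adjusted p = 0.221 from limma). KIF3B was at 97.3 ± 25.6 RPM (injected) and 103.5 ± 28.4 RPM (non-injected), below KIF3A in 24 of 24 and below KIF3C in 23 of 24 oocytes, and KIFAP3 was lower still at 34.1 ± 12.8 RPM (injected) and 36.04 ± 15.1 RPM (non-injected). KIF3A made up 43.4% ± 5.32 of the RNA of KIF3A, KIF3B and KIF3C in injected and 50.1% ± 9.11 in non-injected oocytes, and the ranges of this share overlapped. KIF17, the homodimeric kinesin-2, gave 8 UMIs in injected and 4 UMIs in non-injected oocytes.

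The kinesin-3 cargo motors carried little RNA. KIF16B, a motor of early endosomes, was the highest at 31.2 ± 13.4 RPM in injected oocytes and 25.2 ± 9.92 RPM in non-injected ones, and KIF1B, which moves mitochondria and synaptic vesicle precursors, followed at 9.79 ± 8.95 RPM (injected) and 10.6 ± 6.27 RPM (non-injected). KIF1B was the tested kinesin of lowest level and KIF13B, at 9.21 RPM over all oocytes, the highest of the 17 below the minimum. KIF13B was nevertheless above 0 in 24 of 24 oocytes, whereas KIF13A was found in 10 of 12 oocytes of each group, KIF1C in 6 of 12 of each and KIF1A in 8 of 12 injected and 7 of 12 non-injected oocytes. KIF1BP, which binds kinesins of several families, was at 30.2 ± 9.69 RPM (injected) and 38.0 ± 13.9 RPM (non-injected) (log2FC -0.28, adjusted p = 0.601 from limma).

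Of the 7 other kinesins, KIF24 alone reached 10 RPM. KIF24, a kinesin-13 that caps the mother centriole and restrains cilium growth in human cells, ranged from 63.6 to 245 RPM (median 162) in injected oocytes and from 118 to 249.6 RPM (median 179.7) in non-injected ones, with 3 injected oocytes below all non-injected ones. KIF24 had means of 154 ± 47.3 RPM (injected) and 188 ± 42.3 RPM (non-injected) and a log2FC of -0.32 (SE 0.16, adjusted p = 0.414 from limma). KIF7, a motor of primary cilia known from Hedgehog signalling, had 27 UMIs in injected and 22 UMIs in non-injected oocytes, and its paralog KIF27 had 34 UMIs (injected) and 20 UMIs (non-injected). KIF9, a motor of motile cilia, was detected in 4 of 12 injected and 10 of 12 non-injected oocytes, with 7 UMIs (injected) and 17 UMIs (non-injected). Without the filter on low values, KIF9 had a log2FC of -0.50 (adjusted p = 0.589 from limma) and KIF18B of -0.49 (adjusted p = 0.566 from limma). The remaining members were scarce in both groups. KIFC3 gave 21 UMIs (injected) and 19 UMIs (non-injected), KIF19 gave 11 (injected) and 5 (non-injected), KIF26B gave 6 (injected) and 8 (non-injected), KIFC2 gave 4 (injected) and 7 (non-injected), and KIF21A gave 3 (injected) and 1 (non-injected). KIF12 had 0 UMIs in injected oocytes, which allows up to 0.899 RPM over that group (3 UMIs), and 1 UMI in non-injected oocytes, a difference not detectable at this depth. This floor covers counting error only.

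Summed over members, the kinesins took a similar share of the oocyte's tagged RNA. The sum over 36 kinesins ranged from 2647 to 3691 RPM (median 3047) in injected oocytes and from 2611 to 3550.3 RPM (median 3136) in non-injected ones. Spindle kinesins summed to 1950 ± 184 RPM in injected oocytes and 1903 ± 168 RPM in non-injected ones, and cargo kinesins to 959 ± 132 RPM (injected) and 1015 ± 170.3 RPM (non-injected). The spindle share of all kinesin RNA was 63.3% ± 2.52 in injected and 60.9% ± 2.69 in non-injected oocytes, with ranges of 59.5% to 68.5% (injected) and 57.5% to 66.4% (non-injected). These shares overlap over most of their range, and no test was made of sums over the members. Without KIF5B, the cargo sum was 842 ± 105 RPM in injected oocytes and 820.0 ± 136 RPM in non-injected ones. KIF23 alone made up 30.7% ± 5.34 of the spindle sum in injected and 34.1% ± 2.67 in non-injected oocytes.

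**Figure D4:**
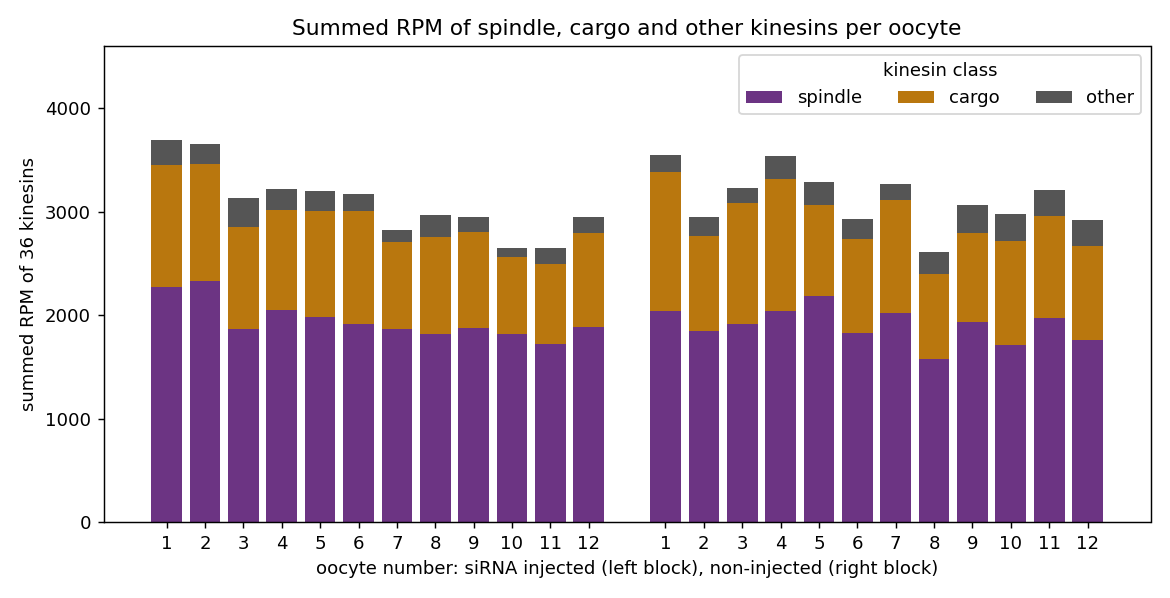
Summed RPM of spindle, cargo and other kinesins stacked for each oocyte, siRNA injected oocytes in the left block and non-injected oocytes in the right block. Totals run from 2647 to 3691 RPM in injected oocytes and from 2611 to 3550.3 RPM in non-injected ones, and spindle kinesins form the larger part in each of the 24 bars.

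The measured kinesin RNA did not vary as 1 block from oocyte to oocyte. Over 24 oocytes, with the group means taken out, the 171 pairs among the 19 kinesins had a median Pearson correlation of 0.03 on log2(RPM + 5), from -0.61 to 0.79. Both genes of a point come from the same library and share its depth. For members whose spread was about that of counting alone, such as KIF11, counting noise pulls correlations towards 0. The highest pair joined the classes, KIF5B of cargo with KIF23 of the spindle at r = 0.79, and it stood at r = 0.85 within injected oocytes (Spearman rho 0.85, n = 12) and at r = 0.66 within non-injected oocytes (rho 0.63, n = 12). KIF5B and KIF23 each ran lower in oocytes with more UMIs, with r = -0.43 and r = -0.37 to log10 UMIs, and in those with more genes above 0, with r = -0.46 and r = -0.56. Their part in the pair's correlation was not tested. Such correlations were not particular to kinesins, since 130 of 7255 other genes had r over 0.6 with KIF5B, of which USP7, EXOSC9 and CD3EAP were above KIF23, and 240 had r over 0.6 with KIF23. KIF3A followed KIF14 at r = 0.66, KIF2A at r = 0.65 and KIF5B at r = 0.63, all within the 24 oocytes. On the negative side stood KIF22, with r = -0.61 to KIF5C and r = -0.60 to KIF5B. By rank, KIF22 and KIF5C were at rho -0.73 in injected and -0.63 in non-injected oocytes. KIF22 and KIF5B were more weakly related by rank, at rho -0.43 (injected) and -0.20 (non-injected), beside r = -0.65 (injected) and r = -0.52 (non-injected). Whether a few oocytes of extreme value account for this difference was not tested. KIF5B and KIF5C, both heavy chains of kinesin-1, were at r = 0.33 in injected (rho 0.16) and r = 0.27 in non-injected oocytes (rho 0.20). These pairs were named after their values were seen.

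**Figure D5:**
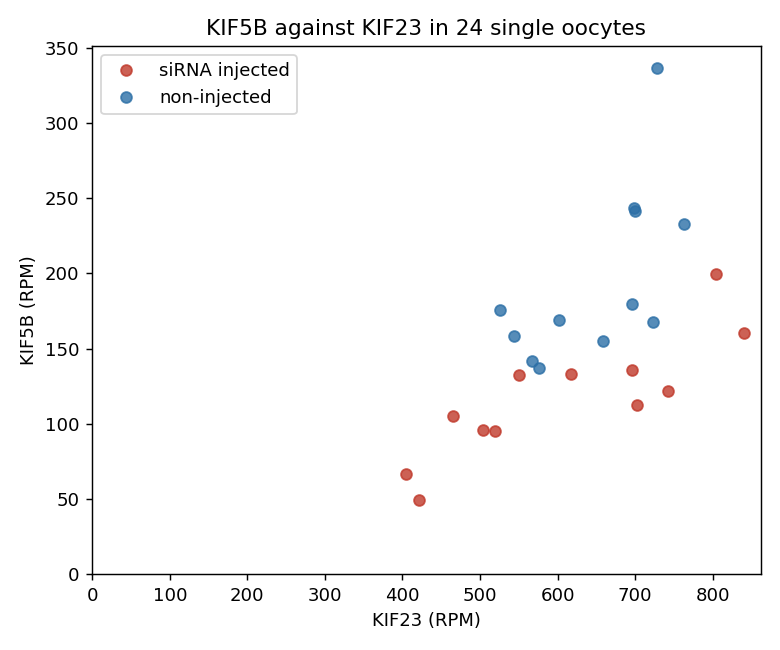
KIF5B against KIF23, both in RPM, in 24 single oocytes, siRNA injected and non-injected in separate colours. Within each group oocytes with more KIF23 tend to have more KIF5B (r = 0.85 in injected and 0.66 in non-injected oocytes on the log2 scale).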

How the data were processed

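Reads of CEL-seq2 libraries had been aligned by the authors to a cDNA reference and collapsed by UMI, and the deposited values are RPM for 17071 rows and 24 oocytes. Every column was used. UMD3.1 is the build in the submitters' processing notes, with no aligner given in the sources used here. Groups came from the sample titles. UMI counts were recovered by undoing a correction with a capacity of 4048, which left 100% of values whole within 0.001. limma 3.58.1 (trend, R 4.3.3) was fitted to log2(RPM + 5) for the 7256 genes averaging 10 RPM or more, and p was adjusted over all of these by Benjamini-Hochberg. edgeR 4.0.16 and DESeq2 1.42.0 on recovered UMIs were alternatives. This log scale understates changes of low genes. Fits were tested on simulated data. Sums, shares and correlations were computed in Python 3.11.15. Fold changes and adjusted p were given for at least the called kinesins, the 8 of smallest p, the 6 of highest mean, and for partners the 4 of smallest p and the 3 of highest mean. Other members are described mainly by level. Members, classes, partner and marker lists were chosen with earlier results of these data known.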

Additional observations from a re-analysis of the deposited data

How the results depend on the processing

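The call of KIF5B depended on the processing. Among 10 alternatives its log2 fold change ranged from -0.77 to -0.66, and 7 called it, with adjusted p from 0.0137 to 0.0969 over the 10. It was not called with a pseudocount of 1 RPM (-0.76, adjusted p = 0.0536 from limma), without the filter on low values (-0.74, adjusted p = 0.0969) or with the replicate number as a block (-0.74, adjusted p = 0.0693), so 0 kinesins were called under each of these 3 settings. Leaving out each oocyte in turn gave 0 to 1 called kinesins and a KIF5B value from -0.81 to -0.64. The cause was not tested. The replicate numbers do not pair the oocytes: same-numbered deviations correlated at -0.12 to 0.17 over 12 pairs, and 1 injected and 0 non-injected oocytes correlated best with their own number.

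KIF2C, KIF3C, KIF22, KIF24, KIF2A, KIF15, KIF11, CENPE, ECT2, HMMR and FEZ1, the 11 genes chosen by small p beside KIF5B, kept their direction in 110 of 110 alternative fits and 264 of 264 fits without 1 oocyte, with 0 called. Changing the filter, the robust fit and the block leave the log2 fold change as it was, so direction could not change there. KIF11 had no adjusted p from DESeq2 and could not be called by it. Among the 19 tested kinesins, KIF20A changed sign in 5 fits without 1 oocyte. Partners called numbered 0 in all fits, though some, such as ARF6 and CIT with DESeq2, had no adjusted p and could not be called there. Over all genes, 6 were called higher and 10 lower, against 2 and 7 with a pseudocount of 1 RPM, 0 and 0 without the filter (1332 at an unadjusted p under 0.05), 19 and 33 with a minimum of 30 RPM, 2 and 10 with TMM scaling, 14 and 17 with depth as a covariate, 12 and 22 with a robust fit, 6 and 5 with the block, 21 and 29 with edgeR, and 37 and 71 with DESeq2. Leaving out 1 oocyte moved these counts between 0 and 14 higher and between 0 and 23 lower. They were 0 and 0 without non-injected oocyte 8, 10 or 11 (889, 887 and 828 genes at an unadjusted p under 0.05) and 14 and 23 without injected oocyte 4. The share of all genes called thus moved with the oocyte left out, and so did the KIF5B call. Depth limits the 17 kinesins under 10 RPM, for which a few UMIs decide the value.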
